A study of Mus musculus with 27 samples.

Results

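Knockout clones 1 and 2 of DNA ligase 4 (Ligase4-/-) in the mouse B-cell line CH12F3 were compared, clone 1 with 3 libraries and clone 2 with 3 libraries, out of 27 libraries in the series. The members were taken by the clone named in the labels and by the library column of the deposited tables. CH12F3 cells switch from IgM to IgA, and all 6 cultures had been stimulated for class switch recombination for 72 h with IL-4 at 20 ng/mL, TGFβ at 1 ng/mL and an antibody to CD40. The series' design text states that 1 Ligase4-/- clone was made from the parental CH12F3 line and the other was obtained from another laboratory, and does not say which of the numbers is which. Each knockout is therefore a single clone. The other 21 libraries come from the parental line (WT), and from PAXX-/-, XLF-/- and XLF-/-PAXX-/- clones under the same stimulation.

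Class switching starts when the deaminase AID damages the switch regions of the immunoglobulin heavy chain locus and the resulting double-strand breaks are joined over a long distance. DNA ligase 4, with XRCC4, seals ends in classical non-homologous end joining; in its absence, breaks are joined by alternative end joining, which often uses short stretches shared by both ends (microhomology). AID also acts at a number of transcribed genes outside the locus, mostly close behind their start sites, and its preferred sites include the palindrome AGCT. The assay, LAM-HTGTS, reads from a fixed bait beside the Sμ switch region into the DNA joined to it, called the prey, so each line of the data is 1 junction.

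The bait and the deposited joins are best seen as sequence. The bait stretch covered on chromosome 12 was chr12:114664783-114664909 (mm9, minus strand as read, 127 bases). Its most frequent base was the same in both clones at all 127 positions (0 differed), and the least uniform position still showed its main base in 98.97% of clone 1 reads and 98.2% of clone 2 reads. It is shown with its 2 AGCT motifs in capitals, followed by a recurrent Sα junction of each clone, in which the capitals mark the bases shared by bait and prey.
Bait, both clones: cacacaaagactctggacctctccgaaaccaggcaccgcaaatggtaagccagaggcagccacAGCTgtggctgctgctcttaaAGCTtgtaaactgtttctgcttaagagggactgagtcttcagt
Clone 1 junction: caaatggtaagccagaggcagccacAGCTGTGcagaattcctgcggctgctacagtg
Clone 2 junction: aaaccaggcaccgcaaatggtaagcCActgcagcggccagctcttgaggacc
The clone 1 example shares 7 bases, joins bait position 114664840 to prey position 114497725, and was read 4 times in 3 libraries of clone 1 and 1 time in clone 2. The clone 2 example shares 2 bases, joins 114664858 to 114497864, and was read 4 times in 3 libraries of clone 2 and 0 times in clone 1.

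The 6 libraries held 59699 of the series' 193201 junctions. Clone 1 gave 10583, 13191 and 14524 junctions in libraries 1, 2 and 3, and clone 2 gave 5811, 7827 and 7763. The 3 libraries of clone 1 came from 3 sequencing runs and those of clone 2 from 1 run. The clones had 0 runs in common, so run and clone cannot be told apart. They also shared 0 runs with the other genotypes, so every comparison with those libraries carries the same limit. The labels call the libraries biological replicates, and p-values here measure the spread between libraries of 2 clones, not between genotypes. Clone 2 library 2 stood apart by its long unaligned gaps, described further on. The main results on other chromosomes are given with and without these lines.

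In the broad prey landscape, the clones overlapped in most regions but not on the rest of chromosome 12. Of all junctions, the Sα window (chr12:114489501-114509500, the acceptor of the switch to IgA) held 34.3%, 41.7% and 43.6% in the clone 1 libraries and 42.4%, 34.1% and 40.02% in those of clone 2. The bait window, which reaches 10 kb beyond the bait on both sides, held 25.4%, 26.5% and 27.8% against 31.3%, 25.7% and 29.5%. Other chromosomes held 30.5%, 21.7% and 18.9% against 18.95%, 33.5% and 22.4%. In each of these the ranges of the clones overlapped. For other chromosomes the 90% interval of the difference, from inverting the exact permutation test, ran from -14.6 to 11.5 percentage points. So wide an interval cannot show that the shares were equal. The span between Sα and the bait held a mean of 3.77% in clone 1 against 3.08% in clone 2. Its libraries overlapped too, with a 90% interval of the difference from -0.0325 to 1.39 points. The rest of chromosome 12, outside the span from Sα to the bait, was higher in clone 1, with 6.39%, 6.24% and 5.76% against 4.25%, 4.09% and 4.62%. That difference was 1.81 points (90% interval 1.13 to 2.30), and 2.00 points (1.27 to 2.56) without lines with a gap over 20 bases.

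An exact permutation test of 3 libraries against 3 cannot go below p = 0.1, so no single measure could pass a threshold of 0.05. Over the 47 measures compared (39 planned and 8 added after the data were seen) the smallest adjusted p was 0.235. The libraries of the clones did not overlap in 20 of the 47 (42.6%), and the values below are read against that share. They are given as sizes with intervals.

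A segment of chromosome 14 appeared in every clone 2 library and in no clone 1 library. All 159 of clone 2's junctions in the 10 kb window that starts at chr14:32420001 fell within about 0.3 kb, 49, 57 and 53 in its libraries, and clone 1 had 0, 0 and 0. This made 74.3 per 10000 junctions in clone 2 against 0 of 38298 in clone 1, which allows up to 0.783 per 10000 (3 counts over the clone, counting error only), so that clone 2 was at least 94.8-fold higher. The limma fit across 58 windows of 10 kb called 9 of them (15.5%, with 12.1% higher in clone 1 and 3.45% higher in clone 2). This window passed with a limma adjusted p of 2.11e-07. A window needed at least 20 junctions over both clones together, and this window met that through clone 2 alone, where it was high. The same segment, chr14:32427221-32427537, was present in all 7 other clones, from 28.7 per 10000 in WT to 86.9 in XLF-/-PAXX-/- clone 2. Clone 1 was thus the only one of 9 clones without it.

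Reads that ran through the end of the chromosome 14 segment continued into Sμ-like repeats. In clone 2, 23 plus-strand reads reached its end and went on for at least 24 bases, and in 14 of these the next 24 bases matched reads that had been aligned within the bait window, on the minus strand of chromosome 12. Over all clones this held for 146 of 198 such reads. The match lay in a repeat, and only 4 of these reads had a single place. The read below, from clone 2, shows the end of the segment in lower case (chr14:32427477-32427536) and the bases that follow it in capitals, a run of AGCT-rich switch repeats.
Clone 2 read: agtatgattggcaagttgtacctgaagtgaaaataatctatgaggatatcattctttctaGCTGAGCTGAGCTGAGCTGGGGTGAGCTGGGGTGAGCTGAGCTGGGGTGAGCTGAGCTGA
Of clone 2's junctions in the segment, 141 were on the plus strand and 18 on the minus strand. By chromosome, limma called chromosome 14 lower in clone 1 (log2 difference -0.62 ± 0.15 SE, adjusted p = 0.00318), 1 of the 2 chromosomes called of 19 tested (10.5%; 5.26% in each direction). Per 10000 junctions on other chromosomes, chromosome 14 held 635, 517 and 489 in clone 1 against 872, 793 and 834 in clone 2. Without the segment, clone 2 held 427, 576 and 529, which overlapped clone 1. With lines with a gap over 20 bases left out and the segment kept, the log2 difference was -0.92 (limma adjusted p = 3.95e-06).

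Off-target windows were denser in clone 1. Counting junctions per 10000 outside the bait window, limma called 7 windows higher in clone 1 and 2 higher in clone 2. The window that starts at chr12:81210001 contains the start of Zfp36l1, which encodes an RNA-binding protein that speeds the decay of AU-rich messenger RNAs. It held 30, 102 and 97 junctions in clone 1 and 10, 7 and 8 in clone 2, or 78.5 ± 35.7 against 17.2 ± 6.89 per 10000 (SD, n = 3 each). The limma log2 difference was 2.06 ± 0.44 SE (adjusted p = 0.00618), and even the lowest clone 1 library lay above all of clone 2. At chr8:129110001, which contains the start of Irf2bp2, a transcriptional corepressor, the counts were 19, 36 and 37 against 3, 2 and 3. That is 32.1 ± 7.07 against 5.48 ± 2.04 per 10000, a 5.87-fold ratio (limma adjusted p = 0.00294). The window at chr2:167360001 holds the start of Snai1, a transcription factor of the epithelial-mesenchymal transition, and had 6, 9 and 11 junctions against 0, 2 and 0 (limma adjusted p = 0.0463). Its name rests on 1 read.

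A further 4 windows, without a name here, passed in the same direction. The window at chr8:125950001 held 27, 59 and 78 junctions in clone 1 and 7, 6 and 9 in clone 2, a 3.82-fold ratio per 10000 (limma adjusted p = 0.00618). At chr6:122500001 the counts were 9, 15 and 30 against 0, 0 and 2 (adjusted p = 0.00618), and at chr11:61460001 they were 9, 14 and 16 against 2, 1 and 2 (limma adjusted p = 0.0396). The window at chr12:114540001 lies between Sα and the bait, within the heavy chain locus, and had 24, 44 and 49 against 7, 8 and 10 (limma adjusted p = 0.0322). A window was tested if it held at least 20 junctions over both clones together, and 4 of the 7 had fewer than 20 in clone 2, so they entered through clone 1, the more deeply sequenced clone, in which they were high. The 2 windows called higher in clone 2 had fewer than 20 in clone 1 and entered through clone 2. Of all 58 windows, 37 had fewer than 20 in clone 2 and 6 fewer than 20 in clone 1. The calls at chr11:61460001 and chr12:114540001 held in 8 of 14 and 10 of 14 alternatives, and that near Snai1 in 6 of 12. Without lines with a gap over 20 bases, the Snai1 window lost its call (limma adjusted p = 0.0793). The other windows called higher in clone 1 kept theirs, that at chr11:61460001 narrowly (limma adjusted p = 0.0465). Per junctions on other chromosomes, limma called 3 windows in place of 9, those of the chromosome 14 segment, of Irf2bp2 and at chr6:122500001 (26 windows tested, 0 of them on chromosome 12). Junctions within them were spread out: the 229 of clone 1 near Zfp36l1 fell on 224 positions and the 164 in the chr8:125950001 window on 159.

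Genes were named by matching prey reads to RefSeq promoter sequences (GRCm38.p6, 250 bases before to 50 after the start) on the same chromosome, with at least 40 bases found in 1 gene only. This put the start of Zfp36l1 at chr12:81214000 (mm9, minus strand, 18 reads) and that of Irf2bp2 at chr8:129117886 (minus strand, 4 reads). Their promoters are shown because these windows separated the clones, with AGCT in capitals, searched on both strands at once since the motif is its own reverse complement.
Zfp36l1 promoter, chr12:80112964-80113263 (GRCm38.p6, minus strand): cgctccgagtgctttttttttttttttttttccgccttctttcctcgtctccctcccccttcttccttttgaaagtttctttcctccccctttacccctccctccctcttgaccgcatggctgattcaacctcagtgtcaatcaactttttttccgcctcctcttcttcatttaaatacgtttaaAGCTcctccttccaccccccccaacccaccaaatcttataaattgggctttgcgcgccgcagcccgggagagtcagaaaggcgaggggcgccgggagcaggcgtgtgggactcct
Irf2bp2 promoter, chr8:126593937-126594236 (GRCm38.p6, minus strand): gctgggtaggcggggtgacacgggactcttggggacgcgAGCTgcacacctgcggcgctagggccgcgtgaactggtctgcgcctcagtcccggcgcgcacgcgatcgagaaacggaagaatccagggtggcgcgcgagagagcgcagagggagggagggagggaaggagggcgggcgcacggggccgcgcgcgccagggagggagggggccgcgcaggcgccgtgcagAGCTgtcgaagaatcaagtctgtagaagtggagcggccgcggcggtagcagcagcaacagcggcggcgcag
The first holds 1 AGCT and the second 2, and 77.6% of the 32851 promoters in the table hold at least 1. Near both of these genes most junctions lay behind the start. Only junctions inside the 10 kb window were counted, so the place of the start in its window bears on this. The start of Irf2bp2 leaves most of its window downstream, so its downstream majority is partly set by the window. That of Zfp36l1 leaves the smaller part of its window downstream. Near Zfp36l1 the median junction without a gap was 879 bases downstream of the start in clone 1 (224 junctions) and 807 in clone 2 (25 junctions), and 46.4% and 48.0% fell within 2 kb downstream. Near Irf2bp2 the medians were 2126 bases (91 junctions) and 1978 (8 junctions), with 33 of 91 and 2 of 8 within 2 kb downstream. Other named windows varied. In clone 1, 18 of 102 junctions lay upstream of the start of Nfkbia (median 1533 bases downstream) and 2 of 25 upstream of that of Snai1 (median 1100). Near Mir17hg, 37 of 41 junctions of clone 1 and 6 of 11 of clone 2 lay upstream of the matched start. The same held for 54 of 55 and 11 of 11 at Gm30211. That start, at chr6:70679207 on the plus strand, lies near the upper end of its window. This left mostly upstream positions to count, so placement around it cannot be read from these counts. At the start of Gm36634 at chr12:56594282, in the Nfkbia window, 92 of 102 and 21 of 21 lay upstream.

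To set the clones on a list that did not use them, the 20 densest 10 kb windows were taken from the 21 libraries of other genotypes, leaving out lines with a gap over 20 bases and everything within 1 Mb of the bait. The chromosome 14 segment ranked first and is left aside here. Over the other 19 windows, clone 1 held 281, 406 and 423 junctions per 10000 gap-free junctions outside the bait window, and clone 2 held 108, 103 and 151. The means were 370 ± 77.9 and 121 ± 26.4 (SD, n = 3 each), a 3.07-fold ratio and a difference of 249 (90% interval 129.6 to 320; exact two-sided permutation p = 0.1, the smallest possible). The 21 other libraries, from other sequencing runs, ran from 18.1 to 194 with a median of 104. Thus 0 of them reached the lowest clone 1 library, while 16 lay below the highest clone 2 library. The mean was higher in clone 1 in 18 of the 19 windows, with a median ratio of 2.84, and in 10 the libraries did not overlap with clone 1 higher. Of the 58 windows of the fit, 29 (50.0%) did so, so the count of 10 was near the background. Most of those 58 windows also had a higher mean in clone 1, so the direction in 18 of 19 was not particular to this list.

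**Figure D1:**
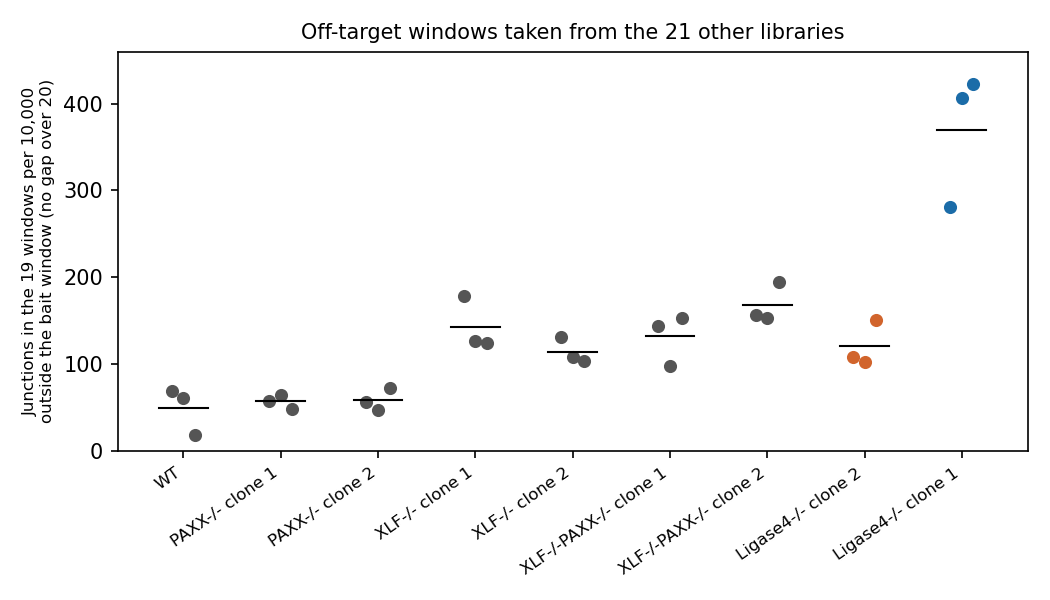
Junctions in the 19 off-target windows per 10,000 gap-free junctions outside the bait window (vertical axis), for each of the 27 libraries by clone (points), with the clone mean (line). The 3 libraries of clone 1 lie between 281 and 423, above every other library, and those of clone 2 between 103 and 151.

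The member genes of that list followed the same order. The chr12:56590001 window holds Nfkbia, the inhibitor that keeps NF-κB in the cytoplasm, and gave 24.1, 47.3 and 40.7 gap-free junctions per 10000 in clone 1 against 10.8, 11.4 and 24.8 in clone 2. The ranges overlapped narrowly, and with all junctions counted the limma adjusted p was 0.0522, short of the threshold. The chr14:115440001 window holds the start of Mir17hg, the host transcript of an oncogenic microRNA cluster, and gave 4.25, 11.8 and 26.8 against 0, 13.7 and 10.3, which overlapped. A single window ran the other way without overlap: chr12:63380001, with 1, 1 and 1 junction in clone 1 and 2, 4 and 3 in clone 2. The window at chr2:98500001 had 20, 5 and 0 junctions in the clone 1 libraries which spread widely within the clone. The window at chr6:70670001, among the 5 densest off the bait chromosome, had 14, 17 and 25 junctions in clone 1 and 0, 2 and 9 in clone 2, and fell short of the threshold with a limma adjusted p of 0.0773.

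**Figure D2:**
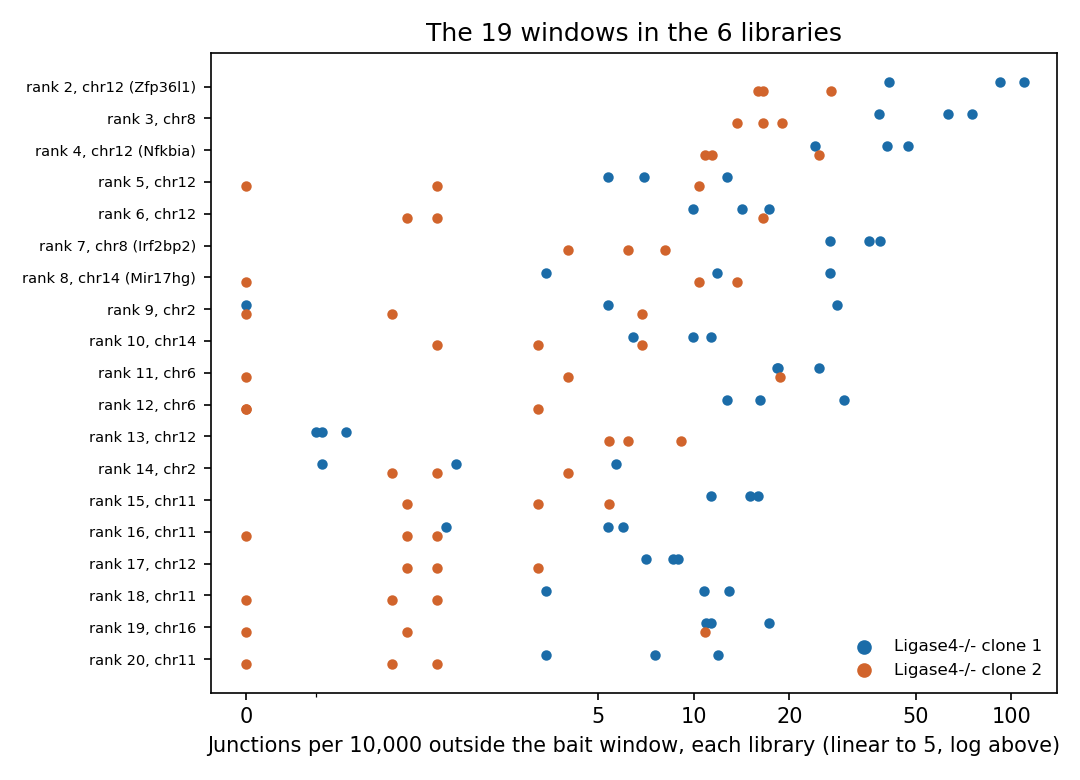
Gap-free junctions per 10,000 outside the bait window (horizontal axis, linear to 5 and logarithmic above) in each of the 19 windows, ranked by their density in the other genotypes; each point is 1 library. Clone 1 points lie to the right of clone 2 points without overlap in 10 of the 19 windows, a share close to the 50.0% of the 58 windows of the fit.

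Chromosome 8, which carries 2 of the called windows, was the other chromosome that limma called (log2 difference 0.64 ± 0.15 SE, adjusted p = 0.00318). It held 645, 845 and 966 junctions per 10000 on other chromosomes in clone 1 against 545, 458 and 558 in clone 2. Without the windows at chr8:125950001 and chr8:129110001 these became 502, 513 and 547 against 454, 427 and 489, without overlap. When lines with a gap over 20 bases were also left out, the values without these windows were 506, 519 and 560 against 466, 396 and 515, and the clones overlapped. With the windows and without gap lines, chromosome 8 kept its call (log2 difference 0.63, limma adjusted p = 0.00128).

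Within Sα, 1 stretch was used more often by clone 1. Along the heavy chain locus, limma called 10 of 126 bins of 500 bases, split by orientation (7.94%; 3.17% higher in clone 1 and 4.76% higher in clone 2). The bin at chr12:114500001 was higher in clone 1 in both orientations. Deletional junctions, in which the prey runs on in the bait's own direction as productive switching requires, numbered 619, 967 and 1081 there against 225, 266 and 277, or 687 ± 89.0 against 361 ± 23.99 per 10000 junctions (limma adjusted p = 4.87e-06). Inversional junctions numbered 117, 139 and 132 against 15, 18 and 33, a 3.36-fold ratio per 10000 (limma adjusted p = 8.04e-07). Neither overlapped between the clones.

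The stretch chr12:114500101-114500400 held most of this difference. It contained 14.6%, 13.7% and 13.0% of the Sα junctions of clone 1 and 2.80%, 4.42% and 3.48% of those of clone 2. The 300 bases just below it ran the other way, with 10.1%, 10.8% and 10.5% against 14.9%, 12.8% and 13.3%. The other genotypes fell on either side: the median was 13.6% for WT, 10.0% and 10.2% for PAXX-/- clones 1 and 2, 4.67% and 4.40% for those of XLF-/-, and 4.37% and 4.01% for those of XLF-/-PAXX-/-. Prey alignments were longer in clone 1, so the share was also taken by prey length. Among preys of 20 to 99 bases it was 14.5%, 13.1% and 13.5% against 2.71%, 4.56% and 4.01%, and among those of 200 bases or more 16.3%, 13.5% and 13.0% against 4.17%, 3.85% and 4.55%. The stretch, read from the deposited junctions of both clones (at least 432 reads a base, plus strand, mm9), is shown with AGCT in capitals because it had the largest difference of those compared.
Sα stretch: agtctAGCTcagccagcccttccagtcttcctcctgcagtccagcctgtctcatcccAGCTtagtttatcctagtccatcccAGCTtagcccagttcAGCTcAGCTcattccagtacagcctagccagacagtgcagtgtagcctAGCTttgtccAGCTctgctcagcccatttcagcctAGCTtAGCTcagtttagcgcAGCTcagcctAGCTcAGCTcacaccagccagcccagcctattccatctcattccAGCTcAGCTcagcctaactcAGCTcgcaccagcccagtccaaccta
It holds 15 AGCT motifs, against 11 in the 300 bases below it and 16 in each of the stretches that start at 114500701 and 114501001. Its main base was the same at every position in both clones (0 differed).

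Near the bait the clones differed in orientation. Deletional junctions made up 62.7%, 60.2% and 61.9% of the bait window in clone 1 and 71.3%, 74.5% and 69.96% in clone 2, a difference of -10.3 points (90% interval -14.3 to -7.29). The other pairs of clones of 1 genotype differed by 0.0232, -0.937 and -1.95 points in this share, each with overlapping libraries. Clone 1's values lay below all 21 other libraries, whose lowest was 66.1%. In the 500-base bin at chr12:114663001, inversional junctions numbered 59, 137 and 121 in clone 1 and 19, 17 and 37 in clone 2 (limma adjusted p = 0.00137). The bin at chr12:114603001, between Sα and the bait, also had more inversional junctions in clone 1 (11, 25 and 17 against 2, 4 and 4, limma adjusted p = 0.0251). It met the filter of at least 20 junctions over both clones through clone 1, where it was high. This bin passed in only 6 of 16 alternatives, with a limma adjusted p of up to 0.378.

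The bins higher in clone 2 were all deletional and near the bait, 6 in number. The bin at chr12:114664501, which overlaps the bait itself, held 199.4 ± 13.0 junctions per 10000 in clone 1 against 314 ± 20.9 in clone 2 (limma adjusted p = 0.0251). The other 5 lay farther along the locus, towards the constant region genes. At chr12:114658001 the counts were 16, 13 and 23 against 28, 14 and 28, which is 13.6 ± 3.27 against 34.0 ± 15.2 per 10000 (limma adjusted p = 0.00989). The bins at 114656501, 114657001 and 114657501 had ratios of 2.34, 2.22 and 2.35 in favour of clone 2, and the libraries overlapped at 114657001. The bin at 114654501 held 6, 2 and 1 junctions against 4, 15 and 15 (limma adjusted p = 3.62e-05). It met the filter of at least 20 junctions over both clones through clone 2, where it was high. The 6 calls higher in clone 2 were less steady than those at Sα. They passed in 7 to 13 of 15 alternatives, that at 114657001 in 8. The Sα bin passed in 15 of 16 for deletional and 16 of 16 for inversional junctions. The fit per junctions outside the bait window dropped the junctions of that window, so it could not call the bins within it. Of deletional junctions below the bait, 24.7%, 19.01% and 19.9% lay over 3 kb away in clone 1 and 27.4%, 22.3% and 26.5% in clone 2, which overlapped.

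**Figure D3:**
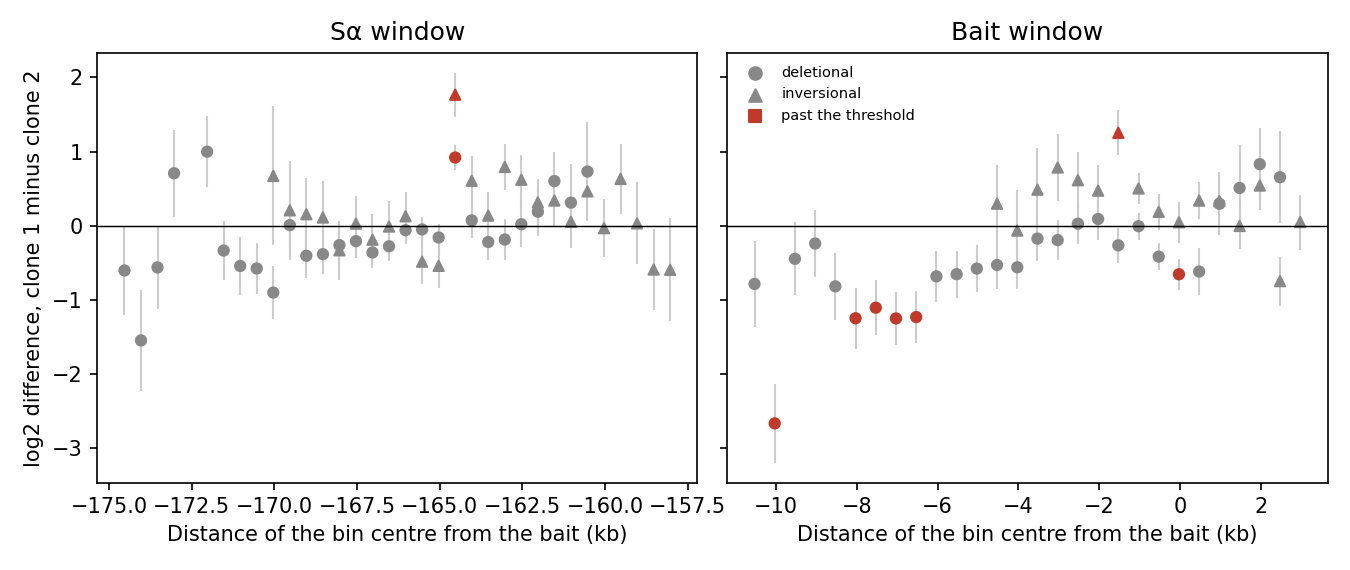
Log2 difference in junctions per library total, clone 1 minus clone 2 (vertical axis, bars are SE), for 500-base bins by distance from the bait in kb (horizontal axis), in the Sα window and the bait window; circles are deletional, triangles inversional and red marks adjusted p under 0.05. One Sα bin stands out in both orientations, with 1.77 and 0.92, and 5 deletional bins far below the bait lie between -1.10 and -2.66.

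Long unaligned gaps were concentrated on other chromosomes and in clone 2. A gap is a stretch of the read between bait and prey that belongs to neither, and lines with a gap over 20 bases were counted. On other chromosomes they made up 18.4%, 8.45% and 7.48% of junctions in clone 1 and 22.1%, 48.9% and 30.7% in clone 2, a difference of -22.4 points (90% interval -41.5 to -3.63) with no overlap. Library 2 of clone 2 lay above the highest of the 21 other libraries, 30.9%. In Sα the shares were small and overlapped, 4.87%, 2.16% and 2.73% against 1.38%, 2.47% and 1.93%.

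Lines with such gaps differed from the rest in 3 other ways. On other chromosomes the read length field was empty in 90.6%, 85.5% and 79.5% of gap lines of clone 1 and 95.9%, 97.4% and 97.2% of those of clone 2, against 2.21% to 4.93% of lines without a gap. Their median gap was 79 to 83 bases, and their prey alignments were short, with a median of 26 or 27 bases. A run of at least 8 A or T was found in the prey in 70.1%, 55.8% and 52.2% of clone 1's gap lines there and in 80.7%, 80.98% and 79.4% of clone 2's, against 3.61% to 4.79% of the other lines. The most frequent 12-base word inside the gaps was the following, which is part of the standard Illumina adapter.
Gap word: GTATGCCGTCTT
It stood in 12.4%, 12.4% and 11.7% of the other-chromosome gap lines of clone 1 and in 24.3%, 12.9% and 11.8% of those of clone 2. In Sα it was found in 0%, 0.840% and 0% in clone 1 and in 0% in each clone 2 library. Whether these lines are joins was not tested.

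Specific windows were made of such lines alone. The window at chr12:114810001, the second one called higher in clone 2, held 10, 15 and 7 junctions there and 0, 0 and 0 in clone 1. All 32 had a gap over 20 bases and an empty read length field, and the window holds 0 junctions without them. The window at chr1:20660001, among the 5 densest off the bait chromosome, held 26, 9 and 8 junctions in clone 1 and 16, 46 and 9 in clone 2. All 43 and all 71 were gap lines, on 2 and 6 positions. By contrast, gap lines were 5 of the 159 in the chromosome 14 segment, 5 of the 229 of clone 1 near Zfp36l1 and 1 of its 92 near Irf2bp2.

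**Figure D4:**
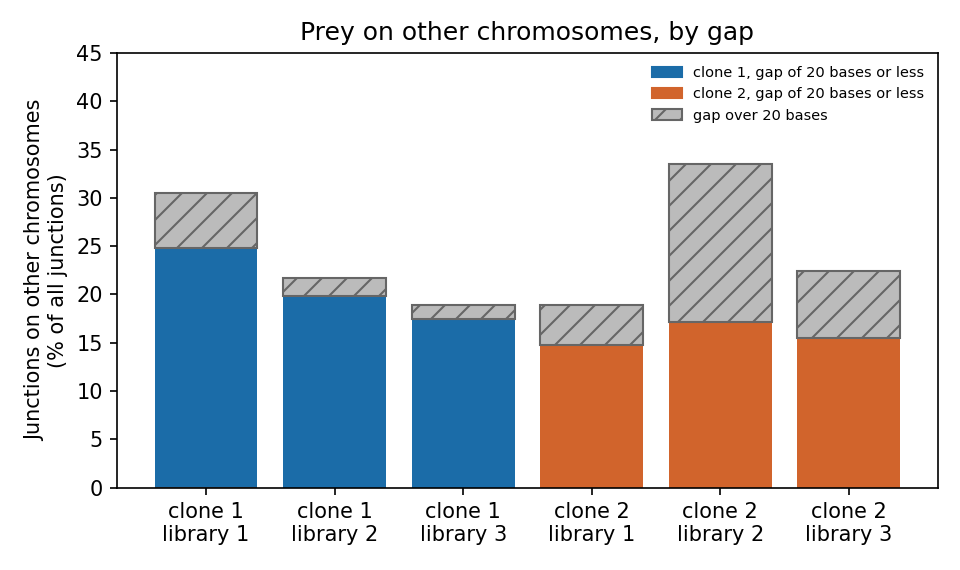
Junctions on other chromosomes as a percentage of all junctions (vertical axis) in each of the 6 libraries, split into lines with a gap of 20 bases or less (coloured) and over 20 bases (hatched). Clone 2 library 2 reaches 33.5% in all, and 48.9% of its other-chromosome lines have such a gap.

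Setting gap lines aside turned several differences on other chromosomes. Their share of gap-free junctions was 27.4%, 20.6% and 18.1% in clone 1 against 15.7%, 21.2% and 17.1% in clone 2, a difference of 4.07 points in place of -1.26, with the ranges overlapping both times. With all lines counted, microhomology made up 56.2%, 63.1% and 66.2% of other-chromosome junctions in clone 1 against 54.3%, 37.0% and 47.7% in clone 2. Without gap lines it was 68.9%, 68.9% and 71.6% against 69.7%, 72.5% and 68.8%, a difference of -0.513 points. Microhomology of 4 or more bases was then 29.6%, 26.2% and 25.5% against 28.7%, 36.8% and 27.97%.

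At Sα, where gap lines were few, the joints of the clones were close. Blunt (direct) joins, which share no base and insert none, formed 6.25%, 5.67% and 6.08% in clone 1 and 5.97%, 8.20% and 5.44% in clone 2, and the 90% interval of the difference ran from -2.53 to 0.812 points. Microhomology was found in 69.8%, 73.6% and 72.3% against 77.9%, 72.4% and 75.3%, which overlapped. Its mean length was 2.84 ± 0.0494 bases in clone 1 and 2.85 ± 0.0532 in clone 2 (SD, n = 3 each), with an interval of the difference from -0.113 to 0.0873 bases. Of 37 overlap values tested, limma called 0 at an adjusted p under 0.05 (0.0%), 2 had an unadjusted p under 0.05, and limma with voom weights also called 0.

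The separate overlap values also differed by less than their errors allowed to call. Joins with 2 shared bases were the most frequent in both clones, 770, 1327 and 1438 junctions in clone 1 and 633, 567 and 749 in clone 2, with a log2 difference in their share of -0.06 ± 0.07 SE. Blunt joins differed by -0.10 ± 0.14 and joins with 3 shared bases by -0.02 ± 0.03. For insertions the values were -0.05 ± 0.13 at 1 base, 0.28 ± 0.13 at 2 bases and 0.27 ± 0.16 at 3 bases, and joins with 1, 4 and 5 shared bases differed by -0.07, -0.09 and -0.11. None of these 9 values passed, and the widest had a limma adjusted p of 0.556.

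Insertions were somewhat more frequent at Sα in clone 1. They made up 23.9%, 20.7% and 21.6% against 16.1%, 19.4% and 19.2%, a difference of 3.82 points (90% interval 1.29 to 7.82). Insertions of 2 to 20 bases accounted for 13.3%, 13.4% and 14.1% against 10.2%, 10.8% and 11.7%, a difference of 2.70 points (1.59 to 3.93), and neither overlapped. Without gap lines the insertion share was 20.0%, 18.98% and 19.4% against 14.9%, 17.4% and 17.6%. Insertions of 2 to 20 bases were also more frequent in the bait window (17.6%, 18.2% and 17.4% against 15.6%, 16.8% and 16.7%) and on other chromosomes (8.03%, 10.7% and 11.2% against 5.72%, 5.11% and 5.92%). On other chromosomes this lack of overlap rested on the gap lines in the total: without them the shares were 9.84%, 11.7% and 12.1% against 7.34%, 10.0% and 8.55%, which overlapped, and the difference fell from 4.39 to 2.57 points. Microhomology of 4 or more bases at Sα was lower in clone 1, 19.9%, 18.8% and 19.3% against 20.5%, 20.4% and 21.3%. Without gap lines it was 20.96%, 19.2% and 19.9% against 20.8%, 20.9% and 21.8%, which overlapped. The PAXX-/- clones differed from each other by -3.85 points in the Sα insertion share and the XLF-/- clones by 0.149, so a gap between 2 clones of a genotype of this size also occurred elsewhere in the series.

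**Figure D5:**
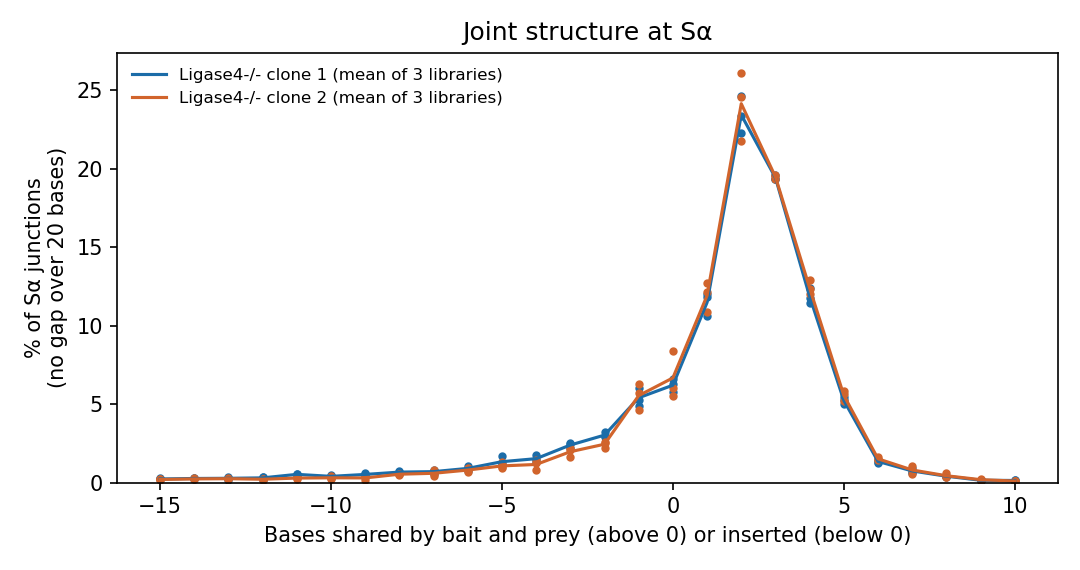
Share of gap-free Sα junctions (vertical axis, %) by the number of bases shared (above 0) or inserted (below 0) at the join (horizontal axis), with each library as a point and the clone mean as a line. The clones run together from 0 upwards, with a peak at 2 shared bases, and clone 1 lies higher over most insertion lengths of 2 or more bases.

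Bait use at Sα was close as well, while orientation differed by a small amount. Deletional junctions made up 83.0%, 84.6% and 83.8% in clone 1 against 84.7%, 87.2% and 86.5% in clone 2, without overlap. The difference was -2.32 points (90% interval -4.24 to -0.112). The other pairs differed by -3.42 (XLF-/-) and -1.65 points (XLF-/-PAXX-/-) without overlap, and by 0.150 (PAXX-/-) with overlap. The 6161-base core of Sα, which holds 90% of Sα junctions with all clones weighted equally, left 12.7%, 10.3% and 11.4% outside in clone 1 and 14.2%, 10.3% and 14.3% in clone 2, which overlapped. Of 87 positions at which the bait ended, limma called 0 (0.0%), with 11 at an unadjusted p under 0.05 and 0 with voom weights. The mean bait length was 63.7 ± 0.865 bases against 62.9 ± 0.567. Prey alignments were longer in clone 1, with Sα means of 154, 174 and 184 bases against 130.0, 136 and 136; the clones were sequenced in different runs, and the part of read length in any result other than the Sα stretch was not tested.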

How the data were processed

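LAM-HTGTS junctions of 3 libraries each of Ligase4-/- clones 1 and 2 were compared. Bowtie2 and the mm9 build are named in the submitters' processing notes, while the authors' filters and treatment of duplicates were not given in the sources used here. Each line of a deposited table is a junction, with coordinates of bait and prey on read and genome; 1 table pools a clone's libraries, which its library column tells apart. Library numbers are names only. Overlap is bait read end minus prey read start plus 1.

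Counts of junctions per 500-base bin, 10 kb window, chromosome, overlap value and bait end (at least 20 junctions over the 6 libraries) were taken as log2 of counts plus 0.5 per 1000000 of the denominator and tested with limma 3.58.1 (R 4.3.3, trended eBayes, Benjamini-Hochberg adjustment over all features of a fit). Denominators were all junctions for bins, those outside the bait window for windows, those on other chromosomes for chromosomes, Sα junctions for overlap values and bait ends. Shares were compared by exact two-sided permutation of libraries. Tables were built with pandas 2.3.3, numpy 2.4.6 and scipy 1.17.1 (Python 3.11.15). In simulated data, 25 of 126 bins and 11 of 58 windows were changed by a log2 of 2 in either direction. Of these, 96.0% of bins and 90.9% of windows were recovered, with 0 and 2 false calls among the unchanged ones. The spread between simulated libraries was set and not estimated from the data. Smaller changes, such as several of those called here, were not simulated.

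The features named in the text are those past the threshold, at most 10 a fit, the 5 densest windows off the bait chromosome, and overlap values from -3 to 5. Members and lists were chosen with earlier results of these data known; the off-target list, the Sα stretch and 8 measures were added after the data were seen. Alternatives were other filters, added counts, weights, denominators and window sizes, identical lines once, no gap lines, the run as a random block, and each library left out. No value column was left out for lack of a sample (0).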

Additional observations from a re-analysis of the deposited data

How the results depend on the processing

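The sum over the 19 off-target windows and the chromosome 14 window kept their direction under every alternative run, and the latter its call. The difference in the sum ran from 124 to 822 junctions per 10000 over other denominators, window sets, identical lines once and gap lines included, and from 223 to 294 with 1 library left out. Counts of called features moved with the settings. For bins the count of 10 became 4 with at least 1 junction, 2 without a trend and 18 with the run as a random block. It became 2 per junctions outside the bait window, a fit that dropped the junctions of that window and could not call the bins within it. For windows the count of 9 became 28 with at least 10 junctions, 18 with voom weights, 33 with the run as a random block, 25 for 50 kb windows and 3 per junctions on other chromosomes. Each run held libraries of 1 clone only, so the run block could not separate run from clone. Its fitted correlation was negative, -0.224 for bins and -0.275 for windows. The higher counts of 18 and 33 with this block are therefore not counts corrected for run. For chromosomes the count of 2 became 4 with at least 1 junction and 4 without a trend. The cause was not tested. With 1 library left out, the counts ran from 3 (without clone 1 library 2) to 17 (without clone 2 library 2) for bins, 5 to 14 for windows, 0 (without clone 2 library 3) to 3 for chromosomes, 0 to 1 for overlap values and 0 to 1 for bait ends. The windows near Zfp36l1, at chr8:125950001 and at chr6:122500001 passed in 13 of 14, 14 of 15 and 14 of 15 alternatives, that near Irf2bp2 in 15 of 15, that near Snai1 in 6 of 12, that at chr11:61460001 in 8 of 14 and that at chr12:114540001 in 10 of 14.

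Directions turned without gap lines, and likewise without lines with an empty read length field, as follows (both values, in points): Sα share -2.14 and -2.13, other-chromosome share 4.07 and 4.22; on other chromosomes, direct joins -2.70 and -2.80, microhomology -0.513 and -0.921, insertions 3.22 and 3.72, microhomology of 4 or more bases -4.05 and -4.09, and mean bait length 1.44 and 1.51 bases. With 1 library left out, directions turned within these ranges: Sα share -1.32 to 3.83, other-chromosome share -4.66 to 3.01, Sα share outside the bait window -4.83 to 3.79, Sα direct joins -1.09 to 0.295, Sα insertions of 1 base -0.648 to 0.148, Sα microhomology length -0.0395 to 0.0171, bait-window direct joins -1.12 to 0.601, bait-window gaps -0.243 to 0.947 and other-chromosome direct joins -0.902 to 3.24. The log2 differences of single overlap values ran from -0.173 to 0.0427 at 1 inserted base, -0.225 to 0.0712 at 0 and -0.137 to 0.00092 at 2 shared bases.

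No paired analysis was possible because the library column carries no replicate numbers. The fit of windows with at least 1 junction was not run, since its trend could not be fitted. Depth limits windows with few junctions in clone 2, whose libraries held 5811 to 7827 junctions.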
